A study of Mus musculus with 12 samples.

Results

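The response to 7-hydroxycoumarin (7-HC) in mice given colistin was read from 6 RNA-seq libraries labelled kidney, 3 of the colistin + 7-HC group and 3 of the colistin group, out of 12 libraries in the series. A gene was a member if it reached 1 FPKM in 3 or more of these 6 libraries, which gave 10289 of the 17738 genes that hold values. The table names no unit, and its values were taken as FPKM, which scales the fragments counted on a gene to its transcript length and to the size of the library. With 7-HC added, 1 gene passed the test at an adjusted p under 0.05. This was Bex2, which went from 1.42 ± 0.33 FPKM in colistin to 5.88 ± 0.56 FPKM in colistin + 7-HC (SD, n = 3 each). Below that threshold, genes for drug-metabolizing enzymes, bile acid transport and carrier plasma proteins tended to lie higher with 7-HC, and chaperones of the endoplasmic reticulum, heat shock proteins and proteasome subunits lower, and how far they did so depended on single colistin libraries.

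The mice were of the Kunming stock, labelled female, and 6 to 8 weeks old. The colistin group received colistin sulfate at 15 mg/kg/day for 7 days by injection into the peritoneum. The colistin + 7-HC group received the same colistin course and, before each colistin dose, 7-HC at 50 mg/kg/day in a DMSO vehicle. The methods describe no DMSO for the colistin group, so the 7-HC and its vehicle cannot be told apart. Libraries were made from 3 mice of each group. The comparison addressed which transcripts differ when 7-HC accompanies colistin. A control group on saline and a group on 7-HC alone in DMSO, with 3 libraries each, serve for the level of a gene without colistin and for the response to 7-HC without it.

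Colistin is a polymyxin antibiotic whose use is limited by injury to the kidney. 7-HC, also called umbelliferone, is a plant coumarin. In mammals, hydroxycoumarins are conjugated by glucuronosyltransferases and sulfotransferases and leave the body in bile and urine, and the genes of these enzymes are controlled in part by the nuclear receptors CAR and PXR. The transcription factor Nrf2, held in check by Keap1, drives antioxidant genes, and the histone deacetylases remove acetyl groups from histones.

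The labelled tissue was checked against marker lists. All 10 liver markers, Alb and Ttr among them, were expressed in the 6 libraries, with a summed level of 47730 to 49630 FPKM in colistin and 51500 to 59490 FPKM in colistin + 7-HC. Of the nephron markers with values, 1 of 8 for the proximal tubule, 0 of 3 for the loop of Henle, 0 of 4 for the distal convoluted tubule, 0 of 3 for principal cells, 1 of 4 for intercalated cells and 2 of 4 for podocytes passed the filter on low values. These were Miox, an oxygenase of inositol, at 4.7 to 15.83 FPKM, Atp6v0d2, a proton pump subunit, at 0.18 to 3.76 FPKM, and Synpo and Podxl, which podocytes share with other cells, at 0.64 to 2.01 FPKM. Slc22a6, an organic anion transporter of the proximal tubule, was listed at 0 in all 6 libraries, and Umod, which encodes uromodulin, reached at most 0.04 FPKM. The markers thus went against the kidney label, with liver markers high and most nephron markers at or near 0, and the libraries are called here by their treatment only. Ddx3y, Eif2s3y, Kdm5d and Uty, which lie on the Y chromosome, were between 1.23 and 24.09 FPKM over all 12 libraries, although the mice were labelled female. The summed values were 579876 to 597354 FPKM per library over the 6, and how many reads each library held is not stated. In bulk tissue, fewer cells of a type and less RNA per cell cannot be told apart.

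The colistin libraries differed more among themselves than the colistin + 7-HC libraries did. The SD of log2(FPKM + 0.5) over 3 libraries had a median over genes of 0.191 in colistin and 0.144 in colistin + 7-HC. Across genes, the correlation between log2 levels was 0.982 to 0.983 among colistin + 7-HC libraries, 0.954 between colistin replicates 1 and 2, 0.977 between 1 and 3 and 0.968 between 2 and 3. Colistin replicate 2 correlated with the colistin + 7-HC libraries at 0.973 to 0.979. These values are descriptions over genes, which are not independent. Colistin replicate 1 lay outside the range of the other 5 libraries in 47.9% of the genes, 2365 above and 2565 below, compared with 34.6% for colistin replicate 2, 28.3% for colistin replicate 3 and 27% to 31.9% for the colistin + 7-HC libraries.

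The genes that stood highest and lowest were taken for each library. In colistin replicate 1, Reg3g, an antimicrobial lectin, Timp1, an inhibitor of metalloproteinases, and Atp6v0a4, a proton pump subunit, stood highest, and Cyp2a4 and Cux2, which are expressed more in female than in male mouse liver, were among the lowest. In colistin replicate 2, the heat shock genes Hspa1b and Hspb1 and again Cyp2a4 stood highest. Hspa1b was at 33.6 FPKM in that library and at 2.07 to 5.69 FPKM in the others, and Cyp2a4 was at 965 FPKM compared with 19.2 to 238 FPKM. Gm43305, Gm41476 and Gm40514 stood lowest in colistin replicate 2, Gm43305 far under the 102 FPKM or more of the others. In colistin replicate 3, Slc13a5, a citrate carrier, Fam25c and Cadm4 stood highest and Chil1, Ifi27l2b and Dynlt1b lowest. In colistin + 7-HC replicate 1, the major urinary protein genes Mup15 and Mup17 and Sp110 stood highest and H2-Bl, Gm10499 and LOC108168691 lowest. In colistin + 7-HC replicate 2, Crym, Gstp3 and Irf9 stood highest and Mup14, Cwc22 and Ccdc122 lowest. In colistin + 7-HC replicate 3, Gsta1, Mug2 and Gm10639 stood highest and Bglap3, Gm9265 and Gm14434 lowest.

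Each gene was tested with limma on log2(FPKM + 0.5), with p-values adjusted over all 10289 genes by the method of Benjamini and Hochberg. A log2 fold change is colistin + 7-HC minus colistin on this scale, which understates the change of genes near the added 0.5. The median log2 fold change over all genes was 0.023, with 54.4% of genes above 0, and the median size of a change was 0.152, close to the median SE of 0.16. At an adjusted p under 0.05, 1 of 10289 genes passed (0.00972%). At the fold change of 2 or more and q of 0.001 or less that the study applied, 0 genes passed here. The study applied them to results of DESeq2, and limma on log2(FPKM + 0.5) is a different test. At an unadjusted p under 0.05 there were 1310 genes (12.7%), 745 higher with 7-HC (7.24%) and 565 lower (5.49%). The 3 libraries of each group did not overlap in 1760 genes (17.1%), 1034 higher (10.0%) and 726 lower (7.06%). Both conditions were met by 931 genes. In 185 genes the log2 fold change was 1 or more in size, and 130 of these were among the genes at an unadjusted p under 0.05.

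**Figure D1:**
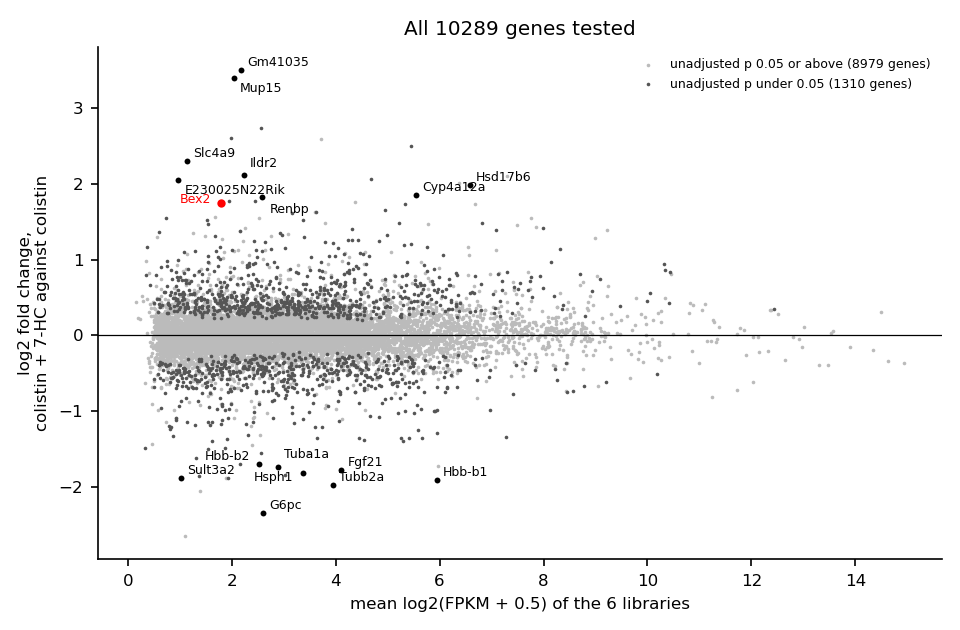
The mean log2(FPKM + 0.5) of the 6 libraries is plotted against the log2 fold change of colistin + 7-HC against colistin for all 10289 genes, with dark points for the 1310 genes at an unadjusted p under 0.05. Bex2 (red) is the gene that passed at an adjusted p under 0.05, and the black points are the 8 largest log2 fold changes above 0 and the 8 largest below 0 among genes at an unadjusted p under 0.05 with libraries that do not overlap.

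Bex2 belongs to the brain expressed X-linked family, small proteins that take part in signalling by neurotrophin receptors and in control of the cell cycle. It lies on the X chromosome at 136066565 to 136068236 on the minus strand (GRCm38.p6, RefSeq gene 12069). Its levels were 1.08, 1.44 and 1.74 FPKM in colistin and 5.24, 6.17 and 6.23 FPKM in colistin + 7-HC. The lowest library with 7-HC was thus above the highest without it. In control the levels were 0.07, 0 and 0.14 FPKM and with 7-HC alone 0.13, 0.06 and 0 FPKM, so that the transcript was close to absent without colistin whether or not 7-HC was given. This was a log2 fold change of 1.74 (SE 0.17, 95% interval 1.38 to 2.11, adjusted p = 0.00331 from limma). The SE draws also on the libraries without colistin, where Bex2 was under the added 0.5 FPKM, which narrows its spread on this scale. With 3 libraries a side, an exact permutation test (two-sided) gave p = 0.1, the smallest this design allows. The call held without each of the 6 libraries, with log2 fold changes of 1.61 to 1.86, and it was lost with a pseudocount of 0.1 (adjusted p = 0.106) and in a fit of the 2 groups alone (adjusted p = 0.129), while adjusted p lay between 0.000439 and 0.129 over all 13 alternatives.

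Of the other Bex genes, Bex3 was tested and Bex1, Bex4 and Bex6 did not pass the filter on low values. Bex3, also known as Ngfrap1, was at 3.58, 2.90 and 2.14 FPKM in colistin and at 3.08, 4.52 and 4.70 FPKM in colistin + 7-HC, and the groups overlapped (log2 fold change 0.45, 95% interval -0.08 to 0.98). Bex1 lay at 0 to 0.37 FPKM. Bex4 was at 0.69 to 1.16 FPKM and Bex6 at 0 to 0.07 FPKM over the 6 libraries. Of 854 words of 50 bases in the GENCODE transcripts of Bex2, 65 (7.61%) also occur in Bex1, 125 (14.6%) in Bex3 and 0 in Bex4 and Bex6, so part of the Bex2 sequence is shared with Bex3 and Bex1. The promoter of Bex2 is shown because it belongs to the gene that passed, at chrX:136068187-136068486 on the minus strand (RefSeq, GRCm38.p6), written 5′ to 3′ with the 50 transcribed bases in capitals.
Bex2: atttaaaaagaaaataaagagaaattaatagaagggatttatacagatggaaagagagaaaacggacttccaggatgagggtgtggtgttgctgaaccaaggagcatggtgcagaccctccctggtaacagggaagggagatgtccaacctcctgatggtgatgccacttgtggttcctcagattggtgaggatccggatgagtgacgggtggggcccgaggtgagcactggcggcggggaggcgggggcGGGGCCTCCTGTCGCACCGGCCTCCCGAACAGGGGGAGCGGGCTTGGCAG

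A further 28 genes had an adjusted p between 0.05 and 0.1, the smallest of them 0.0937. They were chosen after their values were seen and are named as a description. Together with Bex2, 15 of these 29 were higher with 7-HC and 14 lower, and the libraries did not overlap in any. P2rx4, an ATP-gated channel, was at 33.98, 37.55 and 33.67 FPKM in colistin and at 55.10, 64.77 and 56.40 FPKM in colistin + 7-HC. Pbld1 was at 43.74, 44.22 and 42.18 FPKM and at 86.42, 72.68 and 82.53 FPKM with 7-HC. Both had a narrow spread in each group, with log2 fold changes of 0.74 for P2rx4 and 0.88 for Pbld1. Nt5e, which encodes the ecto-nucleotidase CD73 that makes adenosine from AMP, was at 15.68, 16.31 and 14.06 FPKM in colistin and at 8.15, 6.80 and 7.17 FPKM with 7-HC, a log2 fold change of -1.01. Kat2b, a histone acetyltransferase gene, was at 9.96, 12.12 and 11.10 FPKM and at 16.70, 17.41 and 16.71 FPKM with 7-HC (log2 fold change 0.60, adjusted p = 0.0937 from limma).

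Among genes at an unadjusted p under 0.05 with libraries that do not overlap, the 8 with the largest log2 fold changes above 0 were Gm41035, Mup15, Slc4a9, Ildr2, E230025N22Rik, Hsd17b6, Cyp4a12a and Renbp, with log2 fold changes of 3.5 to 1.83 in this order and adjusted p of 0.0937 to 0.329. None passed adjustment. Renbp, the renin-binding protein that also interconverts amino sugars, was at 1.80, 3.67 and 2.78 FPKM in colistin and at 16.23, 9.51 and 7.95 FPKM in colistin + 7-HC (log2 fold change 1.83, SE 0.34). E230025N22Rik was at 0.13, 0.73 and 0.65 FPKM and at 6.10, 2.66 and 2.55 FPKM with 7-HC. In both genes the lowest colistin + 7-HC library was more than 2-fold the highest colistin library. E230025N22Rik was under 1 FPKM in every colistin library. It thus passed the filter on low values only through the group where it was high. Hsd17b6, which acts on androgens and retinoids, was at 18.87, 76.46 and 74.18 FPKM in colistin and at 269, 180 and 142 FPKM in colistin + 7-HC (log2 fold change 1.99). Colistin replicate 1 was the lowest of its group for Hsd17b6, and the log2 fold change was 1.33 without it. Control libraries held 453 to 626 FPKM of this gene.

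Several of these genes varied widely within the colistin + 7-HC group. Cyp4a12a, a fatty acid hydroxylase that is higher in male mice, was at 31.72, 23.91 and 18.71 FPKM in colistin and at 160, 39.70 and 110 FPKM in colistin + 7-HC. Mup15, one of the near-identical major urinary protein genes, was at 0, 1.91 and 1.17 FPKM and at 35.64, 6.03 and 9.44 FPKM with 7-HC. Gm41035, a predicted gene, was at 0, 4.95 and 0.39 FPKM and at 18.69, 15.49 and 10.85 FPKM with 7-HC. Control libraries ranged from 6.74 to 540 FPKM for Mup15, a wider range than that of the 6 libraries compared. Reads of Mup15 and of other genes with close copies may be split among them by the counting. Slc4a9, an anion exchanger gene, was at 0.02, 1.95 and 0.25 FPKM and at 3.96, 8.18 and 2.46 FPKM with 7-HC. Ildr2 was at 5.76, 2.34 and 0.14 FPKM and at 8.85, 8.76 and 10.20 FPKM.

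The 8 genes with the largest log2 fold changes below 0 under the same rule were G6pc, Tubb2a, Hbb-b1, Sult3a2, Hsph1, Fgf21, Tuba1a and Hbb-b2, with log2 fold changes of -2.34 to -1.70 in this order. G6pc, the catalytic subunit that releases glucose in gluconeogenesis, was at 7.34, 31.66 and 9.79 FPKM in colistin and at 3.25, 2.04 and 1.58 FPKM with 7-HC, while control libraries held 60.7 to 259 FPKM. Tubb2a, a beta-tubulin gene, was at 55.14, 23.52 and 20.82 FPKM in colistin, 10.55, 4.50 and 7.91 FPKM with 7-HC and 8.49 to 10.92 FPKM in control (log2 fold change -1.98, SE 0.36). Its partner alpha-tubulin gene Tuba1a was at 16.12, 9.69 and 13.88 FPKM and at 1.97, 2.98 and 7.21 FPKM with 7-HC, and 2.88 to 6.46 FPKM in control. For both tubulin genes the libraries with 7-HC lay at or near the control range and the colistin libraries above it.

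Sult3a2, a sulfotransferase gene, was at 4.90, 3.16 and 2.47 FPKM in colistin and at 0.20, 1.01 and 0.60 FPKM in colistin + 7-HC, a difference of -1.89 on the log2 scale (SE 0.29), with an adjusted p of 0.0937 from limma. Fgf21, a hormone induced in liver by fasting and by amino acid stress, was at 33.01, 38.81 and 24.08 FPKM and at 13.32, 3.92 and 12.58 FPKM with 7-HC. Hbb-b1, a beta-globin gene of red cells, was at 76.97, 259 and 84.43 FPKM and at 24.55, 44.61 and 28.30 FPKM with 7-HC. Hba-a1, an alpha-globin gene, was likewise lower in all 3 libraries with 7-HC, at 87.81 to 106 FPKM compared with 133 to 443 FPKM. The globin genes have near-identical copies, and the amount of blood left in the tissue was not measured. Hbb-bs, listed at 55.13, 0 and 0.28 FPKM in colistin and at 21.21, 0.24 and 23.13 FPKM with 7-HC, was at or near 0 in 3 of the 6 mice.

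**Figure D2:**
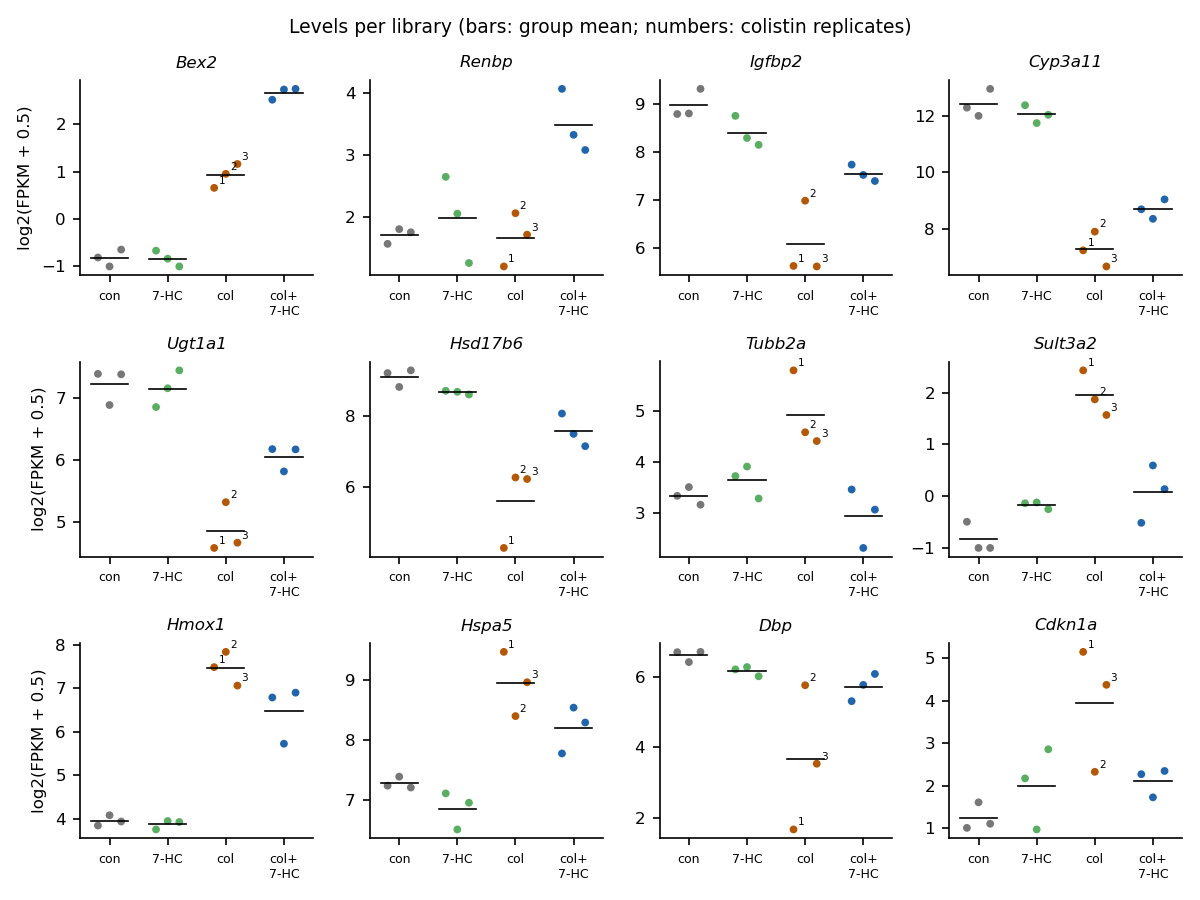
The log2(FPKM + 0.5) of 12 named genes is plotted for each of the 12 libraries by group, with a bar at the group mean and the colistin replicates numbered. The Bex2 points of colistin + 7-HC all lie above those of colistin, whereas for Dbp and Cdkn1a colistin replicate 2 lies with the colistin + 7-HC libraries, away from colistin replicates 1 and 3.

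The number of genes that passed depended on colistin replicate 2. Without it, 481 genes passed at an adjusted p under 0.05 (4.67%), 332 higher with 7-HC (3.23%) and 149 lower (1.45%), and without any other of the 6 libraries 1 gene passed. Of the 481, 354 had an unadjusted p under 0.05 with all 6 libraries and 196 had libraries that did not overlap in all 6. Colistin replicate 2 lay between the other colistin libraries and the colistin + 7-HC libraries in 164 of the 481 genes, inside the range of colistin + 7-HC in 188, beyond it in 97 and among or beyond the other colistin libraries in 32. At an unadjusted p under 0.05 the count was 2072 without colistin replicate 2 and 746 without colistin replicate 1. No label or header marks colistin replicate 2 as different, and its standing apart was not tested further. The fit without it was singled out with earlier results of these data known, so its adjusted p-values are given as descriptions.

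**Figure D3:**
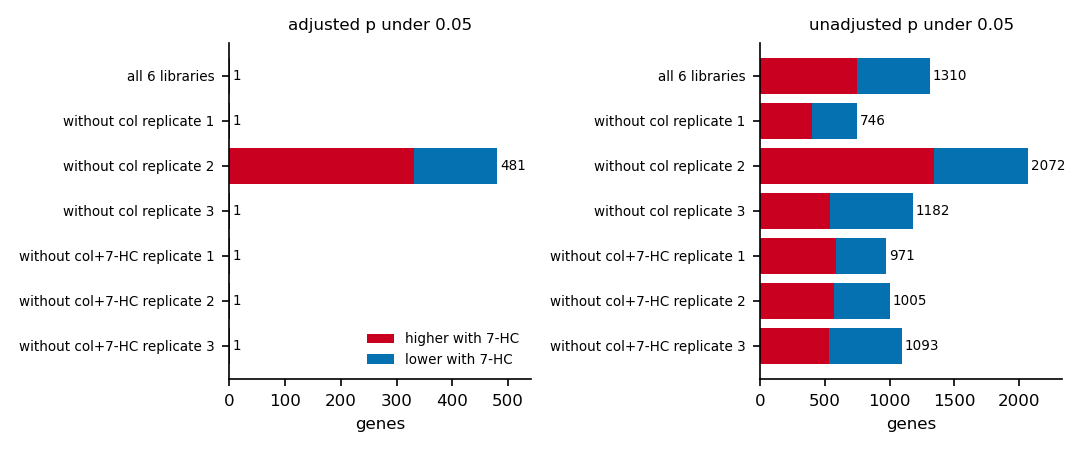
Bars give the number of genes at an adjusted p (left) and an unadjusted p (right) under 0.05 with all 6 libraries and with each library left out in turn, split into genes higher and lower with 7-HC. The adjusted count is 481 without colistin replicate 2 and 1 in each other setting.

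Among the genes that passed without colistin replicate 2 and whose 5 remaining libraries did not overlap, the largest rises were Gm41035, Upp2, Ptgds, Dbp, Slc4a9, Ifit1, Rsad2 and Usp2. Upp2, a uridine phosphorylase that is abundant in liver, was at 3.49, 102 and 14.43 FPKM in colistin and at 72.94, 130 and 115 FPKM with 7-HC. Its log2 fold change was 2.50 with all 6 libraries and 3.74 without colistin replicate 2. Dbp, a transcription factor that follows the circadian clock, was at 2.68, 53.68 and 11.08 FPKM and at 39.11, 54.02 and 67.14 FPKM with 7-HC, and at 84.88 to 104 FPKM in control. For both genes colistin replicate 2 held a level of the colistin + 7-HC group. Usp2, a clock-driven deubiquitinase gene, was at 0.54, 10.99 and 1.63 FPKM and at 5.22, 5.42 and 13.70 FPKM with 7-HC. Ptgds, a prostaglandin D synthase, was at 0.27, 4.04 and 0.67 FPKM and at 25.74, 14.30 and 1.84 FPKM.

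The largest falls in that setting included Reg3g, Timp1, Cdkn1a, Socs1, Tubb2a and Tuba1a. Cdkn1a, which encodes the cell cycle inhibitor p21, was at 35.05, 4.52 and 20.26 FPKM in colistin and at 4.33, 2.81 and 4.59 FPKM with 7-HC. Timp1 was at 21.46, 1.01 and 3.09 FPKM and at 0.87, 0.69 and 1.03 FPKM with 7-HC. In both genes colistin replicate 2 lay inside the range of the colistin + 7-HC libraries. Socs1, a cytokine feedback inhibitor, was below that range in colistin replicate 2, at 13.43, 0.59 and 13.07 FPKM and 1.51, 5.91 and 1.59 FPKM with 7-HC. Reg3g was at 38.83, 1.24 and 5.18 FPKM and at 2.43, 2.02 and 0.55 FPKM with 7-HC. With all 6 libraries none of Reg3g, Timp1, Cdkn1a and Socs1 passed, with adjusted p of 0.276 to 0.647 (limma).

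Lists of genes for pathways and cell types were then described by the number of members at an unadjusted p under 0.05, read beside the background of 7.24% higher and 5.49% lower over all genes, and by their median log2 fold change, read beside the 0.023 of all genes. In every list but the Bex family, 0 members passed at an adjusted p under 0.05. The lists overlap in part and their members share the 6 libraries, so the counts are descriptions.

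Genes of drug metabolism lay on the higher side. Of 24 tested Cyp2 and Cyp3a enzymes outside the receptor list, 9 were higher at an unadjusted p under 0.05 (37.5%) and 0 lower, with a median log2 fold change of 0.66. Cyp3a25 was at 33.06, 187 and 94.26 FPKM in colistin and at 198, 232 and 231 FPKM with 7-HC. Cyp2c54 was at 4.71, 7.64 and 4.79 FPKM and at 11.14, 19.32 and 22.61 FPKM. Cyp2e1 was at 614, 1380 and 1038 FPKM and at 1424, 1708 and 2197 FPKM. The groups did not overlap in 5 of the 24, all higher (20.8%, beside 10.0% of all genes), these 3 among them. Even so, for Cyp2e1 and Cyp3a25 colistin replicate 2 lay close under the colistin + 7-HC group. The median of the list was 0.28 without colistin replicate 1. Over the 24 members 0 passed with all 6 libraries and 7 passed on the higher side without colistin replicate 2.

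Cyp3a11, the main drug-inducible Cyp3a gene of mouse liver and a target of PXR, was at 152, 240 and 103 FPKM in colistin, at 415, 329 and 529 FPKM in colistin + 7-HC and at 4065 to 7856 FPKM in control (log2 fold change 1.42, SE 0.33). The colistin + 7-HC libraries thus held more of it than the colistin libraries and far less than the control libraries. Of the 14 tested genes of the aryl hydrocarbon receptor, CAR and PXR list, 2 were higher at an unadjusted p under 0.05 (14.3%) and 0 lower, with a median of 0.44 that was 0.71 without colistin replicate 2 and 0.10 without colistin replicate 1. Cyp1a2, a target of the aryl hydrocarbon receptor, was at 53.06, 76.03 and 51.62 FPKM and at 119, 69.33 and 143 FPKM with 7-HC. Tiparp, another target, was at 4.48, 2.02 and 7.52 FPKM and at 6.39, 9.65 and 6.04 FPKM. In both the groups overlapped.

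Of 24 tested glucuronosyltransferase and sulfotransferase genes, which conjugate hydroxycoumarins among other substrates, 6 were higher at an unadjusted p under 0.05 (25.0%) and 1 lower (4.17%). Ugt1a1 was at 23.36, 39.34 and 24.80 FPKM in colistin and at 71.72, 55.75 and 71.48 FPKM with 7-HC (log2 fold change 1.2, SE 0.23, with an adjusted p of 0.0937 from limma), and at 118 to 167 FPKM in control. The Ugt1a genes share their downstream exons, so their reads may be split among them. Sult2a8, a liver sulfotransferase, was at 12.17, 30.80 and 27.01 FPKM and at 62.26, 53.05 and 69.83 FPKM with 7-HC. Ugt2b36 was at 66.10, 209 and 117 FPKM and at 212, 193 and 227 FPKM. The groups overlapped in Ugt2b36 and did not overlap in 3 of the 24, all higher (12.5%, beside 10.0% of all genes). The median of the list was 0.36, with 0.73 without colistin replicate 2 and 0.07 without colistin replicate 1, so it depended on which colistin library was counted.

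Bile acid synthesis and transport held 15 tested genes, of which 5 were higher at an unadjusted p under 0.05 (33.3%) and 0 lower, with a median of 0.40. Slco1a1, an organic anion uptake carrier, was at 1.95, 8.79 and 5.44 FPKM in colistin and at 12.14, 14.56 and 19.64 FPKM with 7-HC. Abcb11, the bile salt export pump, was at 17.00, 41.33 and 41.21 FPKM and at 70.24, 51.14 and 42.73 FPKM. Cyp27a1, a sterol 27-hydroxylase, was at 51.10, 97.61 and 95.70 FPKM and at 109, 117 and 121 FPKM. Colistin replicate 1 was the lowest library for all 3, and without it the median of the list was 0.21 and the log2 fold change of Abcb11 went from 0.79 to 0.37.

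Carrier plasma proteins showed the same side. Of 12 tested, 4 were higher at an unadjusted p under 0.05 (33.3%) and 0 lower, with a median of 0.30. Serpina6, the corticosteroid-binding globulin, was at 7.6, 46.70 and 27.78 FPKM in colistin and at 47.25, 94.27 and 87.61 FPKM with 7-HC. Fetub, fetuin B, was at 732, 1001 and 895 FPKM and at 1188, 1222 and 1167 FPKM. Rbp4, the retinol carrier, was at 519, 1611 and 914 FPKM and at 1482, 1800 and 2044 FPKM. The groups did not overlap for Serpina6 and Fetub, and for Rbp4 colistin replicate 2 lay among the libraries with 7-HC. In control, Fetub was at 515 to 597 FPKM, below both groups. Serpina6 and Rbp4 in control lay above both groups, at 292 to 671 FPKM and at 3171 to 3745 FPKM. Among 24 positive acute-phase genes, which liver raises in inflammation, 1 was higher and 1 lower at an unadjusted p under 0.05, with a median of -0.21 that was -0.42 when colistin replicate 2 and -0.06 when colistin replicate 1 was left out. Crp, C-reactive protein, was at 391, 398 and 477 FPKM and at 869, 655 and 602 FPKM with 7-HC, whereas Serpina3m, a protease inhibitor, was at 1820, 1056 and 1369 FPKM and at 992, 940 and 980 FPKM. In control, Crp was at 165 to 196 FPKM, below both groups, and Serpina3m at 808 to 1092 FPKM. Saa3 overlapped, at 5000, 3318 and 4869 FPKM and at 3734, 3567 and 1370 FPKM.

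Growth hormone responsive and sex-biased genes numbered 23, with 4 higher at an unadjusted p under 0.05 (17.4%), 0 lower and a median of 0.35 that was 0.15 when colistin replicate 1 and 0.56 when colistin + 7-HC replicate 2 was left out. Igfbp2, a binding protein of insulin-like growth factors, was at 48.68, 126 and 48.32 FPKM in colistin, at 213, 183 and 168 FPKM with 7-HC and at 444 to 639 FPKM in control (log2 fold change 1.48, SE 0.33). The libraries of the 3 groups did not overlap, with colistin + 7-HC between colistin and control. In the clock list, 3 of 16 genes were higher (18.8%) and 1 lower, and Nr1d1, which encodes the clock repressor REV-ERB alpha, was at 10.61, 17.41 and 19.43 FPKM and at 41.36, 24.19 and 24.04 FPKM with 7-HC. Nr1d2, its paralog, was at 10.06, 17.06 and 17.35 FPKM and at 20.79, 21.11 and 19.42 FPKM.

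Fuel metabolism gave a mixed picture. Of 14 gluconeogenesis and glycogen genes 4 were higher (28.6%) and 2 lower at an unadjusted p under 0.05, and the median of 0.26 was -0.04 without colistin replicate 1. The groups did not overlap in 1 on each side (7.14% each, beside 10.0% higher and 7.06% lower of all genes). Slc2a2, the glucose transporter of hepatocytes, was at 8.98, 29.20 and 13.63 FPKM in colistin and at 35.05, 24.92 and 41.03 FPKM with 7-HC. Gys2, liver glycogen synthase, was at 24.34, 68.28 and 30.88 FPKM and at 53.97, 82.34 and 82.08 FPKM, while G6pc lay on the lower side. The groups overlapped in both Slc2a2 and Gys2. Of 25 genes of fatty acid oxidation and PPAR alpha targets 5 were higher (20%) and 1 lower, with Cyp4a14, a PPAR alpha target, at 6.49, 19.29 and 12.78 FPKM and at 55.93, 25.21 and 23.14 FPKM. Cyp4a10 was at 11.44, 22.11 and 7.47 FPKM and at 53.07, 25.22 and 21.08 FPKM. Cpt2, a carnitine palmitoyltransferase, was at 53.98, 39.74 and 42.65 FPKM and at 31.95, 29.39 and 33.54 FPKM. The Cyp4a genes and Cpt2 thus lay on opposite sides. In control, Cpt2 was at 42.26 to 50.05 FPKM, above the colistin + 7-HC libraries. Cyp4a10 and Cyp4a14 in control lay above both groups, at 266 to 334 FPKM and at 332 to 383 FPKM. Of 26 oxidative phosphorylation genes 24 had a log2 fold change above 0, with a median of 0.12, and 3 were higher at an unadjusted p under 0.05 (11.5%), namely Cyc1 (0.35), Atp5c1 (0.29) and Atp5b (0.25). In fatty acid synthesis 2 of 16 were higher (12.5%), Mlxipl (0.65) and Acacb (0.67), with Fads1 at 0.38.

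In the urea cycle list 1 of 12 genes was higher and 1 lower at an unadjusted p under 0.05, with a median of 0.39 that was 0.12 without colistin replicate 1. Otc, ornithine transcarbamylase, was at 43.01, 79.38 and 36.57 FPKM and at 80.32, 78.68 and 71.88 FPKM with 7-HC. Slc25a15, the mitochondrial ornithine carrier, was at 42.88, 69.45 and 48.93 FPKM and at 34.37, 37.70 and 40.65 FPKM. Gls2, a glutaminase, overlapped at 22.57, 77.98 and 46.43 FPKM and at 71.93, 74.01 and 69.86 FPKM. In both Otc and Gls2 the colistin + 7-HC libraries were close together and the colistin libraries spread around or below them.

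**Figure D4:**
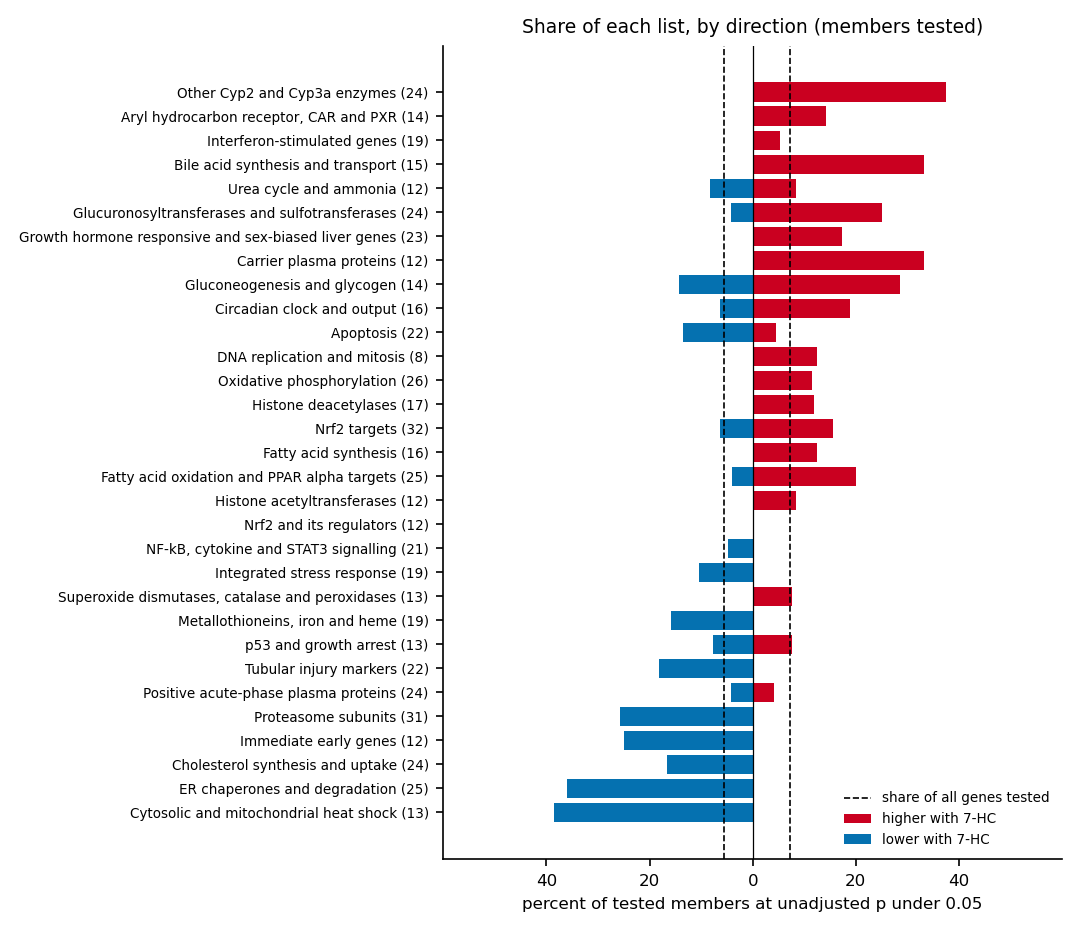
Bars give, for each gene list with 8 or more tested members, the percent of members at an unadjusted p under 0.05 that were higher (right) or lower (left) with 7-HC, and dashed lines give the share of all genes, 7.24% higher and 5.49% lower. The Cyp2 and Cyp3a list reaches 37.5% on the higher side, and the heat shock and endoplasmic reticulum lists reach 38.5% and 36.0% on the lower side.

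Protein folding genes lay on the lower side with 7-HC. Of 25 chaperone and degradation genes of the endoplasmic reticulum, 9 were lower at an unadjusted p under 0.05 (36.0%) and 0 higher, 22 of 25 had a log2 fold change below 0, and the median was -0.44. Hspa5, which encodes the luminal chaperone BiP, was at 707, 337 and 498 FPKM in colistin, at 219, 372 and 313 FPKM in colistin + 7-HC and at 147 to 167 FPKM in control. Pdia4, a disulfide isomerase, was at 353, 136 and 228 FPKM and at 102, 149 and 143 FPKM with 7-HC. Sdf2l1, a cofactor of BiP, was at 147, 49.27 and 88.57 FPKM and at 31.15, 55.85 and 46.70 FPKM. In all 3 genes colistin replicates 1 and 3 lay above every library with 7-HC and colistin replicate 2 lay among them. Of the 25, 1 member was lower in all 3 libraries of the group without overlap (4%, beside 7.06% of all genes), the median was -0.68 without colistin replicate 2 and -0.20 without colistin replicate 1, and 8 members passed on the lower side without colistin replicate 2.

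Many genes of such chaperones carry the ER stress response element, which is bound by ATF6 together with NF-Y. It was searched as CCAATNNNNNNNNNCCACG on both strands of the RefSeq promoters, 250 bases before to 50 bases after each start (GRCm38.p6). It occurred in 37 of 27025 genes with a promoter (0.137%) and in 8 of the 21 members of the list that have one (38.1%), Hspa5, Hsp90b1, Calr, Canx, Pdia6, Dnajc3, Creld2 and Derl3. Their log2 fold changes ran from -1.29 in Creld2 to -0.15 in Canx. Pdia4 (-0.78) and Sdf2l1 (-0.99) were not among these 8, and 22 of the 25 list members were below 0. The share of members with the element describes the genes chosen for the list and draws on no fold change. Whether members with and without the element differed was not tested. The Hspa5 promoter, at chr2:34771840-34772139 on the plus strand, is shown as that of the most studied member, with the element in capitals beginning 65 bases before the start.
Hspa5: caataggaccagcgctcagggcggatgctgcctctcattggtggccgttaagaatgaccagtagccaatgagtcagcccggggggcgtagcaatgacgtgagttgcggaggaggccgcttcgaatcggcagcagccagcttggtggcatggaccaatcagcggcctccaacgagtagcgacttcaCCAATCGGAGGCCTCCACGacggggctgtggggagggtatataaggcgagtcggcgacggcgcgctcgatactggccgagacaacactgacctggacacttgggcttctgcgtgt

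Of 13 tested heat shock genes of the cytosol and mitochondria, 5 were lower at an unadjusted p under 0.05 (38.5%), 0 were higher and the median was -0.67. Hsph1, which encodes the HSP110 nucleotide exchange factor, was at 15.05, 28.68 and 15.82 FPKM in colistin and at 4.69, 5.40 and 5.05 FPKM in colistin + 7-HC (log2 fold change -1.82). Hsp90aa1, the inducible HSP90, was at 58.52, 109 and 47.99 FPKM and at 26.16, 27.17 and 24.61 FPKM. Bag3, a cochaperone of HSP70, was at 23.39, 23.78 and 17.84 FPKM and at 11.54, 14.15 and 12.16 FPKM. The groups did not overlap in 5 of the 13, all lower (38.5%, beside 7.06% of all genes), these 3 among them. Here colistin replicate 2 was the highest library for each of the 3. The median was -0.35 without it. In control, Hsph1 itself ran from 3.91 to 17.73 FPKM, which overlapped both groups. The heat shock element, searched as GAANNTTCNNGAA on both strands, was found in 3 of the 9 members with a promoter (33.3%), Hsph1, Hspd1 and Hspe1, and in 179 of 27025 genes (0.662%). This share, too, describes the chosen list and draws on no fold change. The Hsph1 promoter with a match, at chr5:149636287-149636586 on the minus strand, is shown because Hsph1 had one of the largest log2 fold changes below 0. Its match, in capitals, begins 36 bases after the start of this promoter, 1 of 2 listed for the gene, and reads on the opposite strand. The gene itself, on the minus strand, begins at 149636498, before this start.
Hsph1: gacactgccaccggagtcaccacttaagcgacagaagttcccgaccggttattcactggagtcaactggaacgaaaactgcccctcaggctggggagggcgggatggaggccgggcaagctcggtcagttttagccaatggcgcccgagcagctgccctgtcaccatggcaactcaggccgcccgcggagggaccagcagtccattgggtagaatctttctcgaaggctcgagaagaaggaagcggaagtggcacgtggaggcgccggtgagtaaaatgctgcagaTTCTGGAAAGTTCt

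Subunits of the proteasome, which degrades ubiquitin-tagged proteins, also lay on the lower side. Of 31 tested subunits 30 had a log2 fold change below 0, with a median of -0.22, and 8 were lower at an unadjusted p under 0.05 (25.8%) and 0 higher. The groups did not overlap in 14, all lower (45.2%, beside 7.06% of all genes). Psmd14, the deubiquitinase of the lid, was at 20.95, 13.85 and 13.10 FPKM in colistin and at 9.64, 9.43 and 10.21 FPKM with 7-HC. Psmd11, another subunit of the lid, was at 53.40, 49.72 and 46.44 FPKM and at 39.04, 35.14 and 41.38 FPKM. Psmc2, an ATPase of the base, was at 42.52, 38.64 and 37.94 FPKM and at 28.24, 30.31 and 31.72 FPKM. The list median was -0.13 without colistin replicate 1 and between -0.27 and -0.16 without any other library.

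Cholesterol synthesis and uptake genes lay lower in 22 of 24, with a median of -0.29 and 4 at an unadjusted p under 0.05 (16.7%), 0 higher. Ebp, a sterol isomerase, was at 74.66, 70.18 and 73.47 FPKM and at 60.04, 59.23 and 60.78 FPKM with 7-HC. Dhcr7, the last reductase of the pathway, was at 100, 67.02 and 68.25 FPKM and at 63.38, 41.14 and 42.63 FPKM. Pmvk, phosphomevalonate kinase, was at 36.07, 35.47 and 35.15 FPKM and at 31.40, 30.64 and 24.59 FPKM. The groups did not overlap in 8 of the 24, all lower (33.3%, beside 7.06% of all genes), these 3 among them. In the integrated stress response 2 of 19 were lower (10.5%) and 0 higher, Fgf21 and Ddit3, which encodes CHOP and was at 11.84, 11.40 and 8.12 FPKM and at 6.03, 4.94 and 5.87 FPKM with 7-HC, while Atf5 had a log2 fold change of -0.44 and the median was -0.02. Immediate early genes held 3 of 12 lower (25.0%), with a median of -0.23. Jun was at 3.40, 9.90 and 4.91 FPKM and at 1.52, 2.10 and 1.92 FPKM. Ier5 was at 4.02, 1.84 and 1.53 FPKM and at 0.75, 0.51 and 1.27 FPKM, and Ier3 overlapped.

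Nfe2l2, the gene of Nrf2, and Keap1 differed by less than the spread between libraries. Nfe2l2 was at 12.09, 15.96 and 10.33 FPKM in colistin and at 13.97, 10.06 and 13.00 FPKM in colistin + 7-HC (log2 fold change -0.04, 95% interval -0.45 to 0.37), and Keap1 at 18.08, 21.03 and 16.22 FPKM and at 17.63, 16.56 and 19.97 FPKM (-0.03, 95% interval -0.28 to 0.23). The sign of both turned with single libraries left out. Of 12 tested genes for Nrf2 and its regulators 0 had an unadjusted p under 0.05 in either direction, with Bach1 (0.34), Sqstm1 (-0.25) and Nfe2l1 (-0.22) at the smallest p. Of 32 tested Nrf2 targets 5 were higher (15.6%) and 2 lower (6.25%), with a median of 0.11 that was 0.25 without colistin replicate 2. The groups did not overlap in 2 on the higher side (6.25%, beside 10.0% of all genes) and 1 on the lower (3.12%, beside 7.06%). Gclc, the rate-limiting subunit of glutathione synthesis, was at 115, 185 and 152 FPKM and at 264, 197 and 220 FPKM with 7-HC. Gsta4, a glutathione transferase, was at 12.75, 31.88 and 14.05 FPKM and at 32.79, 37.85 and 64.76 FPKM.

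Hmox1, heme oxygenase 1, lay on the other side. It was at 179, 228 and 133 FPKM in colistin, at 110, 52.49 and 119 FPKM in colistin + 7-HC and at 13.93 to 16.49 FPKM in control (log2 fold change -0.99, SE 0.28, with an adjusted p of 0.2 from limma). The colistin and colistin + 7-HC libraries did not overlap for this gene. Cat, catalase, was at 271, 630 and 364 FPKM and at 610, 515 and 669 FPKM with 7-HC (0.59), and its fold change passed on the higher side in the fit without colistin replicate 2 (0.92, adjusted p = 0.0218 from limma, beside 0.368 with all 6). Over the fits with each of the 6 libraries left out, the log2 fold change of Cat ran from 0.31 to 0.92, with a limma adjusted p of up to 0.846. The superoxide dismutase genes had log2 fold changes of 0.15 for Sod1, -0.32 for Sod2 and -0.17 for Sod3, each with an interval that included 0, and Gpx1, glutathione peroxidase 1, one of 0.41.

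Hdac1, a class I histone deacetylase, was at 10.66, 10.83 and 10.26 FPKM in colistin, at 9.13, 8.68 and 10.69 FPKM in colistin + 7-HC, at 8.89 to 10.46 FPKM in control and at 7.10 to 9.07 FPKM with 7-HC alone. Colistin and colistin + 7-HC overlapped, and the log2 fold change was -0.15 (95% interval -0.42 to 0.11, adjusted p = 0.639 from limma), so a difference of -0.42 lay at the edge of the interval. Of 17 tested deacetylases 2 were higher (11.8%) and 0 lower at an unadjusted p under 0.05. Hdac11 was at 7.41, 12.83 and 10.61 FPKM and at 15.94, 14.73 and 15.87 FPKM with 7-HC (log2 fold change 0.60). Sirt1, an NAD-dependent deacetylase, was at 2.71, 2.50 and 3.06 FPKM and at 3.59, 3.52 and 3.73 FPKM (0.34), while Sirt4 had 0.24. Of 12 tested acetyltransferases Kat2b alone was at an unadjusted p under 0.05, and Kat2a (0.27) and Kat8 (-0.19) followed.

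Apoptosis genes gave 1 of 22 higher (4.55%) and 3 lower (13.6%) at an unadjusted p under 0.05. Casp9, the initiator of the mitochondrial pathway, was at 2.73, 2.69 and 2.37 FPKM in colistin and at 2.84, 2.83 and 3.19 FPKM with 7-HC (log2 fold change 0.16) and was not past an unadjusted p of 0.05. Bik, a death-promoting BCL2 relative, was at 0.58, 1.36 and 2.16 FPKM and at 6.63, 3.20 and 3.85 FPKM with 7-HC (1.48). Diablo, which releases caspases from inhibition, was at 13.40, 12.50 and 12.01 FPKM and at 10.17, 10.37 and 10.27 FPKM. Casp4, an inflammatory caspase, was at 2.52, 1.99 and 2.36 FPKM and at 1.39, 1.71 and 1.19 FPKM. Genes that promote death thus lay on both sides.

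Of a list of genes used as markers of kidney tubule injury 4 of 22 were lower (18.2%) and 0 higher, with a median of -0.13. Since nephron markers were at or near 0 and liver markers high in these libraries, the values cannot be read as levels in the tubule. Lcn2, which encodes neutrophil gelatinase-associated lipocalin, was at 16362, 8838 and 10511 FPKM in colistin and at 9848, 8674 and 7801 FPKM in colistin + 7-HC, and at 14.22 to 49.31 FPKM in control (log2 fold change -0.40, 95% interval -1.28 to 0.49). The groups overlapped and both lay far above control. Sox9, a transcription factor of duct and progenitor cells, was at 7.69, 1.41 and 5.66 FPKM and at 1.57, 1.62 and 1.52 FPKM with 7-HC. It passed in the fit without colistin replicate 2 (log2 fold change -1.78, adjusted p = 0.00373 from limma), beside an adjusted p of 0.283 with all 6. Over the fits with each of the 6 libraries left out, its log2 fold change ran from -1.78 to -0.73, with a limma adjusted p of up to 0.74.

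Interferon-stimulated genes varied between mice of the same group. Of 19 tested, 1 was at an unadjusted p under 0.05 on the higher side (5.26%) and 0 on the lower, and 16 had a log2 fold change above 0, with a median of 0.41 that was 0.12 without colistin + 7-HC replicate 1. Usp18, which removes ISG15 from proteins, was at 5.08, 8.58 and 5.35 FPKM in colistin and at 24.96, 14.02 and 11.46 FPKM with 7-HC (1.30). Ifit1, a sensor of viral RNA, was at 4.61, 48.20 and 5.31 FPKM and at 67.09, 21.66 and 36.46 FPKM with 7-HC. Rsad2, viperin, was at 3.36, 43.05 and 2.86 FPKM and at 48.33, 9.29 and 25.25 FPKM. In both genes colistin replicate 2 stood among the colistin + 7-HC libraries. The interferon-stimulated response element, searched as GAAANNGAAA on both strands, was found in 10 of 16 members with a promoter (62.5%) and in 1079 of 27025 genes (3.99%). That share describes the genes chosen for the list and draws on no fold change. The promoters of Ifit1, at chr19:34640639-34640938 on the plus strand, and Rsad2, at chr12:26456403-26456702 on the minus strand, are shown because these genes separated the libraries in the same way, with matches in capitals, of which the first begins 104 bases before the start of Ifit1 and that of Rsad2 120 bases before its start.
Ifit1: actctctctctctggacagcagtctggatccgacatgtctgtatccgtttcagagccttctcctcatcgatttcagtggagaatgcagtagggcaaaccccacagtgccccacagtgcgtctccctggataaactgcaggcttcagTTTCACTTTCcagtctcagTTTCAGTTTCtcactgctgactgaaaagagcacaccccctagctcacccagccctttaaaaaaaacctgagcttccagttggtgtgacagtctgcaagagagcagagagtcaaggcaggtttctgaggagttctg
Rsad2: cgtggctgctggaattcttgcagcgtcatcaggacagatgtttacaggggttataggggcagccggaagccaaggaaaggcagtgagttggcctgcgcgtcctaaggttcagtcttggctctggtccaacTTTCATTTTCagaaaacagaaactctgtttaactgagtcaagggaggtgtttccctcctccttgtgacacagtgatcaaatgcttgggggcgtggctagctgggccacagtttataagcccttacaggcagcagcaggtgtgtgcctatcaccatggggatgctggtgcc

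Smaller lists added single genes. Of 21 genes of NF-kB, cytokine and STAT3 signalling 1 was lower (4.76%) and 0 higher, Nfkbie, an inhibitor of NF-kB, at 3.12, 2.68 and 2.04 FPKM and at 1.62, 1.89 and 1.15 FPKM with 7-HC, with Tnfaip3 (-0.46) and Nfkbib (-0.24) next. Of 8 genes of DNA replication and mitosis 1 was higher (12.5%), Mcm6, a helicase subunit, at 1.47, 1.69 and 1.70 FPKM and at 2.80, 2.95 and 2.54 FPKM, with Mcm2 (0.21) and Mcm7 (0.20) next. Mcm2 was under 1 FPKM in every colistin library and passed the filter only through the colistin + 7-HC libraries. In the p53 list 1 of 13 was higher, Sesn1 (0.68), and 1 lower, Cdkn1a (-1.84), with Trp53inp1 at -0.46. Of 19 genes of metallothioneins, iron and heme 3 were lower (15.8%) and 0 higher, Hmox1, Cpox (-0.45), which acts in heme synthesis, and Hfe (-0.55), which regulates iron uptake.

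Markers of cell types were set beside these results. Of 8 markers of sinusoidal endothelium all 8 had a log2 fold change below 0, whereas 54.4% of all genes lay above 0. Their median was -0.41, and -0.31 without colistin replicate 2. The summed level was 81.99 to 111 FPKM in colistin and 67.12 to 75.77 FPKM with 7-HC. The list medians by library overlapped, at -0.11, 0.43 and 0.22 in colistin and at -0.23, -0.31 and -0.08 with 7-HC. These medians are differences from the mean of the 6 libraries. Oit3 was at 6.13, 10.36 and 8.20 FPKM and at 5.20, 4.70 and 5.13 FPKM with 7-HC. Stab1, a scavenger receptor, was at 6.94, 7.92 and 6.79 FPKM and at 5.01, 5.59 and 4.59 FPKM, and Cdh5, VE-cadherin, had -0.44. Of 10 neutrophil markers 5 were tested, and 2 of these were lower at an unadjusted p under 0.05, S100a8 at 16.52, 8.16 and 16.54 FPKM in colistin and at 6.53, 4.05 and 6.63 FPKM with 7-HC and Retnlg at 6.42, 2.35 and 4.33 FPKM and at 1.48, 1.68 and 3.42 FPKM. The summed neutrophil level was 30.62 to 56.15 FPKM in colistin and 20.17 to 35.19 FPKM with 7-HC. Of 10 Kupffer cell and macrophage markers Lyz2 (-0.60) was at an unadjusted p under 0.05, with summed levels of 125 to 270 FPKM and 140 to 175 FPKM that overlapped. The 10 liver markers had a median of 0.25, with Alb at 19926, 24957 and 17552 FPKM and at 26224, 22372 and 28237 FPKM. Of the other lists, erythroid markers held 2 of 5 tested lower, bile duct markers 1 of 3 and podocyte markers 1 of 2, none of the 8 stellate cell and fibroblast markers was at an unadjusted p under 0.05, and of the T and NK cell markers and the intercalated cell markers 1 each was tested, at -0.19 for Ccl5 and 0.22 for Atp6v0d2. No B and plasma cell, adipocyte or exocrine pancreas marker passed the filter on low values. The part of cell composition in the differences above was not tested.

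**Figure D5:**
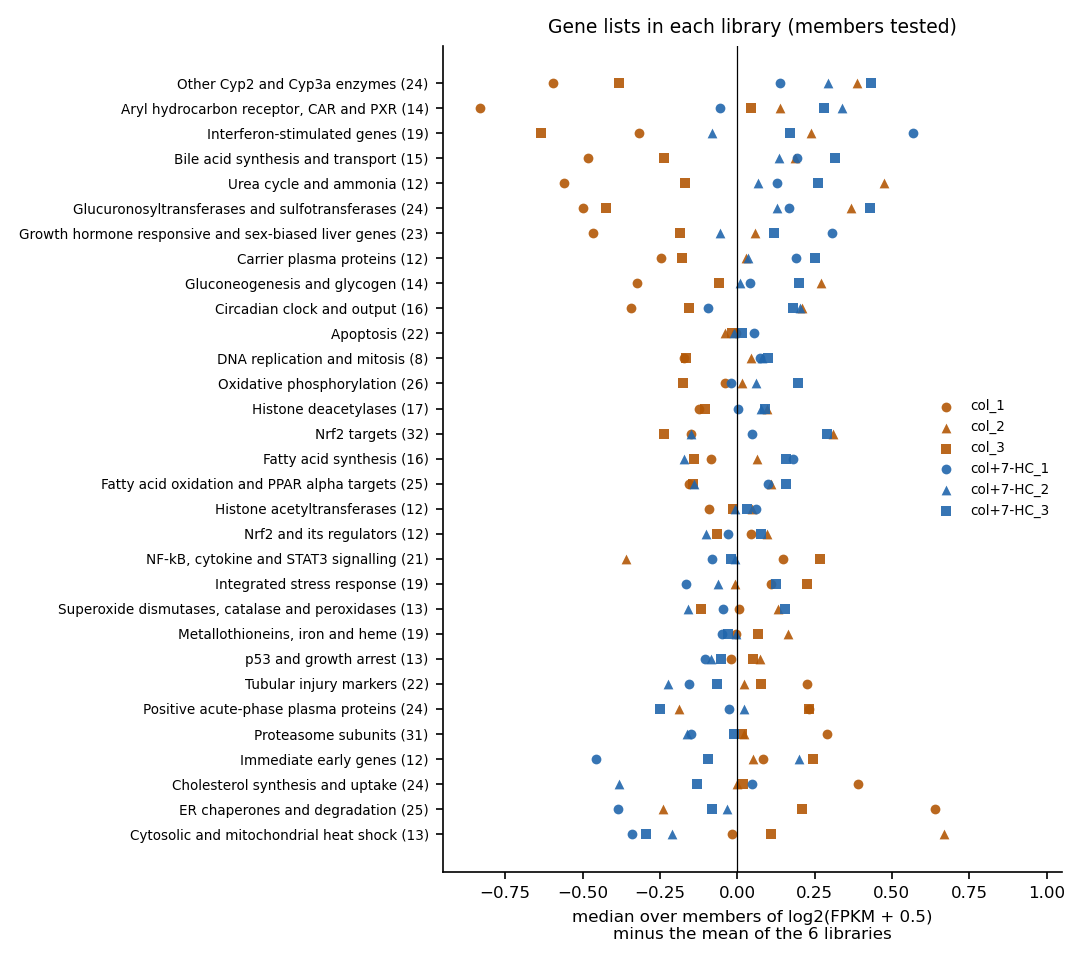
For each gene list with 8 or more tested members (count in brackets), points give the median over members of log2(FPKM + 0.5) in each of the 6 libraries minus the mean of the 6, with colistin libraries in orange and colistin + 7-HC libraries in blue. Colistin replicate 2 (orange triangle) lies at 0.39 for the Cyp2 and Cyp3a list, where colistin replicates 1 and 3 lie at -0.60 and -0.38, and at 0.67 for the heat shock list.

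The medians of the lists in single libraries showed how the colistin libraries disagreed. In the plot of list medians by library, the glucuronosyltransferase and sulfotransferase list lay at -0.50, 0.37 and -0.42 in colistin and at 0.17, 0.13 and 0.43 in colistin + 7-HC, as the difference from the mean of the 6 libraries. The endoplasmic reticulum list lay at 0.64, -0.24 and 0.21 in colistin and at -0.39, -0.03 and -0.08 with 7-HC. In both, colistin replicate 2 was on the side of the colistin + 7-HC libraries. The proteasome list lay at 0.29, 0.02 and 0.02 in colistin and at -0.15, -0.16 and -0.01 with 7-HC, with all 3 colistin libraries above the 3 others.

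The response to 7-HC differed between mice with and without colistin in 31 of 10289 genes (0.301%), by a test of the difference itself over all 12 libraries (adjusted p under 0.05 from limma). The count fell to 0 without any 1 of several libraries, namely control replicate 2, 7-HC replicates 2 and 3, colistin replicates 1 and 3 and colistin + 7-HC replicate 3, and was 141 without colistin replicate 2. Of the 1310 genes at an unadjusted p under 0.05 with colistin, 641 (48.9%) had the same sign of response to 7-HC without colistin, and over all genes 50.1% had, where the 2 responses share no library. Bex2 was among the 31, with a response of 1.74 with colistin and -0.02 without it and a difference of 1.76 (SE 0.24, adjusted p = 0.029). Sult3a2 (difference -2.55), Mcm6 (1.13), Pmvk (-1.06), Usp18 (2.92) and Hsd3b2 (2.98) were the other named genes among the 31. Without colistin, Bex2 lay at 0 to 0.14 FPKM and Sult3a2 at 0 to 0.42 FPKM, under the added 0.5, where this scale understates a response. The difference for Bex2 thus adds little to its contrast with colistin. Hsd3b2 was also low with colistin, at 0.47 to 3.10 FPKM. Pmvk was at 22.92, 18.09 and 20.73 FPKM in control and at 36.83, 37.10 and 31.17 FPKM with 7-HC alone, the opposite order to that seen with colistin. Hsd3b2, a steroid dehydrogenase, was at 77.78, 85.12 and 53.87 FPKM in control and at 16.14, 13.68 and 18.18 FPKM with 7-HC alone, while with colistin it was at 0.47, 1.40 and 0.77 FPKM and at 1.88, 1.12 and 3.10 FPKM with 7-HC added.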

How the data were processed

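RNA from tissue labelled kidney was sequenced in 12 libraries, 3 mice for each of 4 groups, on a BGISEQ-500. Per the labels, the authors cleaned reads (SOAPnuke), used HISAT2 2.0.4 and Bowtie2 2.2.5 with the GRCm38.p6 build, and estimated expression with RSEM 1.2.12. The deposited table states no unit and the methods name only RSEM, so the values were taken as FPKM because they are not whole and their sums differ between libraries. They are not counts, the number of reads is unknown, and strand is not given in the sources used here. The table lists 22899 genes, of which 17738 hold values and 5161 are blank. The authors compared groups with DESeq2 1.4.5, and those comparisons were not used here. Read assignment among near-identical genes cannot be checked from these values.

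A gene was kept if 3 or more of the 6 libraries held at least 1 FPKM. Log2(FPKM + 0.5) was fitted over all 12 libraries with limma 3.58.1 in R 4.3.3, with 1 mean per group and no block, since the labels tie replicate numbers to nothing shared and 2 of 18 same-numbered pairs had residuals correlated over 0.1. The contrast was colistin + 7-HC minus colistin, and p-values were adjusted by Benjamini-Hochberg over 10289 genes. P-values set a difference of group means against the spread between mice within groups. Each gene had 1 estimate of this spread over the 4 groups, moderated across genes. Single values were also given to an exact permutation test over libraries, whose smallest p is 0.1. The script was tested on simulated data. Figures used matplotlib 3.10.9. Promoters came from RefSeq (GRCm38.p6), and 10262 of the tested gene IDs were found in its gene table.

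Named were every gene at an adjusted p under 0.05, the 8 largest log2 fold changes in each direction among genes at an unadjusted p under 0.05 with libraries that do not overlap, the same among genes that passed without colistin replicate 2, the genes of the study's mouse measurements, the 3 members of each list with the smallest p, the tested Bex genes and the 3 highest and lowest genes of each library. Some genes that these rules name are not reported here. The members, the 32 gene lists and the 17 marker lists were chosen with earlier results of these data known. The alternatives were other filters, pseudocounts of 0.1 and 1, a fit of the compared groups alone, scaling by median ratios, a replicate block and leaving out each library.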

Additional observations from a re-analysis of the deposited data

Results flagged for a closer look

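For 6 named genes the response to 7-HC differed between mice with and without colistin by a test of the difference itself (limma, adjusted over 10289 genes). 7-HC came with DMSO in both settings. Bex2 and Sult3a2 were under the added 0.5 FPKM in every library without colistin, where the log2 scale understates a response. Hsd3b2 was also low with colistin, at 0.47 to 3.10 FPKM. For Bex2 the difference on the log2 scale was 1.76 (adjusted p = 0.029), with 3 of 3 colistin + 7-HC libraries above all colistin libraries. For Hsd3b2 it was 2.98 (adjusted p = 0.029), and the response without colistin was -2.12, with all 3 libraries on 7-HC alone below all control libraries. For Sult3a2 it was -2.55 (adjusted p = 0.0381), with all 3 colistin + 7-HC libraries below all colistin libraries. For Mcm6 it was 1.13 (adjusted p = 0.0381), where control libraries held 2.79, 3.20 and 3.25 FPKM and libraries on 7-HC alone 1.72, 1.90 and 2.47 FPKM. For Pmvk it was -1.06 and for Usp18 2.92 (adjusted p = 0.0424 for both), and Usp18 was at 17.44, 20.53 and 9.06 FPKM in control and at 3.34, 4.53 and 5.99 FPKM with 7-HC alone. None of these 6 differences passed when control replicate 2, 7-HC replicate 2 or 3, colistin replicate 1 or 3 or colistin + 7-HC replicate 3 was left out, since 0 genes passed then. With 3 libraries a group, no test for a library far from the others was made.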

How the results depend on the processing

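The count of genes at an adjusted p under 0.05, 1 as reported, was 3 with no filter on low values, 0 with a pseudocount of 0.1 and 0 in a fit of the 2 groups alone, and 1 to 481 without each library in turn, with 481 without colistin replicate 2. At the fold change of 2 and q of 0.001 it was 1 with a pseudocount of 1 and 0 otherwise. At an unadjusted p under 0.05 the count of 1310 was 746 to 2072 without each library, and 1116 to 1830 under the other alternatives. Genes whose libraries do not overlap numbered 2375 to 4072 without each library, since fewer libraries overlap less often. The count of genes whose response to 7-HC differed with colistin, 31 as reported, was 6 with no filter, 0 with a replicate block and 0 to 141 without each library.

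Replicate numbers are shared by the groups but pair no samples, as residuals of same-numbered colistin and colistin + 7-HC libraries correlated at -0.204 to 0.0167. With the replicate block, 1 gene passed at an adjusted p under 0.05 and 1233 at an unadjusted p under 0.05.

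Of 176 named genes, the 144 with a fold change reported were followed. Their values under 13 alternatives kept direction and side of the threshold in 1792 of 1853, and 49 passed the threshold without colistin replicate 2. Bex2 lost its call with a pseudocount of 0.1 (log2 fold change 1.995) and in the fit of the 2 groups alone (1.743). Among these 144 genes, leaving out 1 library turned the sign of 5, none of which passed. The ranges were -0.373 to 0.951 for Atp6v0d2, -0.465 to 0.163 for Ccl5, -0.113 to 0.07 for Keap1, -0.177 to 0.125 for Nfe2l2 and -0.333 to 0.04 for Sod3. Genes named as highest or lowest of a library turned too, among them Chil1 (-1.312 to 1.889) and Cyp2a4 (-0.677 to 2.13). Of 515 list medians, 28 moved beyond their spread, 9 of them without colistin replicate 2. The cause was not tested. The unknown number of reads limits what can be said of genes near 1 FPKM.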

Other observations

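Transcripts of the exocrine pancreas were listed in 1 library of the 6. Colistin + 7-HC replicate 2 held the digestive enzyme genes Amy2a5 at 9.55 FPKM, Prss2 at 6.03 FPKM, Cela2a at 5.73 FPKM, Cpa1 at 3.56 FPKM and Pnlip at 2.61 FPKM. Over the other 11 libraries Prss2 and Cpa1 were listed at 0, Amy2a5 reached 0.1 FPKM and Pnlip 0.11 FPKM in control replicate 1, and Cela2a reached 1.15 FPKM. None of these genes passed the filter on low values.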
